A study of Mus musculus with 12 samples.

Results

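Ribosome biogenesis factors are described here as 40 listed mouse genes, read from the rows of a table of normalized read counts that carry their symbols. All 40 were found among the 48321 genes listed. The list was chosen by measured values of the same 12 libraries, namely that norepinephrine (NE) raised this class more in vector than in tSema4B cells, so the differences below describe how these genes were selected. Counts of calls at a p threshold are given for them only as a description beside the share or number of all genes, and no p of a member is printed.

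The cells were brown preadipocytes of wild-type C57BL/6J background, taken from a newborn mouse, immortalized with the SV40 large T antigen and differentiated into adipocytes for 8 days. A lentivirus had given them either the empty pLEX vector (vector) or a truncated, soluble form of the semaphorin Sema4B (tSema4B), and transduced cells were selected with puromycin. How many lines were made of each construct is not given in the sources used here. Both lines received serum-free medium with bovine serum albumin for 6 h. It was given without NE (unstimulated) or with 2 μM NE, the adrenergic agonist that activates brown fat. Each of the 4 groups held 3 libraries, which the submitters call technical replicates, so the spread given below may be technical.

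The ribosome is built in the nucleolus. RNA polymerase I copies the ribosomal DNA into a long precursor, small nucleolar RNAs (snoRNAs) in protein complexes guide its chemical modification, and large assembly machines cut and fold it into the small and the large subunit before export. MYC is a transcription factor known for raising many genes of this pathway, and nucleolin and nucleophosmin are among the most abundant nucleolar proteins. In brown fat, adrenergic stimulation is known for heat production, lipolysis and growth of the tissue.

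Of the 40 genes, 7 carry annotated snoRNA genes inside them (17.5%), against 1.76% of the 10741 protein-coding genes tested (189 genes). The hosts are Ncl, Nop56, Nop58, Dkc1, Wdr43, Tsr1 and Gnl3, and together they hold 21 snoRNA genes. A snoRNA of the box C/D kind guides 2′-O-methylation of ribosomal RNA and is itself bound by the proteins Fbl, Nop56 and Nop58, which are among the 40. The letters TGATGA (box C) in the first 25 bases together with CTGA (box D) in the last 25 were found in 9 of the 21. One is shown from each of 5 hosts, because the gene that codes for a factor here also carries an RNA of the same pathway. Sequences are from GENCODE transcripts of GRCm38, printed 5′ to 3′, with both boxes in capitals, and levels of the snoRNAs were not analysed here.
Snord110, in Nop56 (chr2:130275506-130275573, plus strand): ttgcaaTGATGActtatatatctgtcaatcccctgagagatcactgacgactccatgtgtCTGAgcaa
Snord11, in Nop58 (chr1:59704790-59704873, plus strand): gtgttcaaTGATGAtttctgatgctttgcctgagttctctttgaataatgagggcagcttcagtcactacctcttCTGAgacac
Snord82, in Ncl (chr1:86356261-86356330, minus strand): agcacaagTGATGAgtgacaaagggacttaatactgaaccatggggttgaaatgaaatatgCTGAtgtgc
Snord69, in Gnl3 (chr14:31014287-31014366, minus strand): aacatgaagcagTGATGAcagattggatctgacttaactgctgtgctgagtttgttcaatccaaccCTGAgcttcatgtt
Snord92, in Wdr43 (chr17:71631281-71631365, plus strand): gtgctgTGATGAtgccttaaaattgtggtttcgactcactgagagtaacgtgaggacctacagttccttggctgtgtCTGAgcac

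MYC binds the E-box CACGTG, which reads the same on both strands. RefSeq promoter windows (GRCm38.p6, 250 bases before to 50 after a gene's start) were matched for 33 of the 40 genes and for 27025 genes in all. The latter include genes that were not tested here, unlike the 33, so the shares below are not of like sets. CACGTG stood in the windows of 7 of the 33 (21.2%), against 8.09% of all genes with a window and 18.0% of 111 other ribosome biogenesis genes. The related letters CACGCG or CGCGTG stood in 33.3% of the 33, against 10.5% of all genes and 31.5% of the other ribosome biogenesis genes. The ETS-type letters CCGGAAG or CTTCCGG stood in 30.3%, against 9.93% and 47.7%. These windows are shown, at most 30 bases each on the gene's own strand with the E-box in capitals, because Myc is 1 of the genes that differed. A match is a run of letters and not a measured binding site.
Nop2 (chr6:125131811-125131840, plus strand): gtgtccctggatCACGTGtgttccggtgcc
Pes1 (chr11:3963965-3963994, plus strand): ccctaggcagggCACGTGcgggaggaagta
Wdr43 (chr17:71616220-71616249, plus strand): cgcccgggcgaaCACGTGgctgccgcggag
Tsr1 (chr11:74898092-74898121, plus strand): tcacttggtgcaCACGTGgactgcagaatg
Ltv1 (chr10:13193092-13193121, minus strand): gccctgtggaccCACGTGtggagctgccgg
Utp20 (chr10:88826765-88826789, minus strand): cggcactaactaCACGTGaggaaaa
Mybbp1a (chr11:72441355-72441376, plus strand): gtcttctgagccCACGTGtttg
In 6 of the 7 the E-box began after the start site, between base 3 (Pes1) and base 41 (Mybbp1a), and in Nop2 it began 60 bases before it. NE estimates of these 7 genes in vector cells lay between 0.54 (Utp20) and 0.99 (Nop2) on the log2 scale, around the median of all 40 given below.

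Between 2000780 and 5409583 reads were counted on genes per library, and the vector libraries after NE were the deepest (4739777 to 5409583). Sema4b was at 65472 to 124008 normalized counts in vector libraries and at 208760 to 316850 in tSema4B libraries, and the lines did not overlap. It was thus high in the vector libraries too, at 2.04% to 4.02% of a library against 7.01% to 10.2% in tSema4B libraries, and these counts do not separate the transgene from the cell's own gene. All 9 brown adipocyte markers, Adipoq, Fabp4 and Ucp1 among them, had lower levels in the tSema4B line, both unstimulated and after NE. Their summed level was 26710 to 29327 in unstimulated vector libraries and 3737 to 5968 in unstimulated tSema4B libraries, in which Ucp1 was at 0. After NE that level was 38794 to 50733 in vector and 6079 to 7120.4 in tSema4B libraries. The 9 did not move together with NE. In vector cells limma called 2 higher and 2 lower (22.2% each, beside 6.82% and 4.78% of all genes). Their median log2 change was 0.03, and the largest was 4.42. In tSema4B cells 2 were called higher and 0 lower (22.2% higher, beside 3.68% of all genes), with a median of 0.47. Of 6 preadipocyte markers tested, limma called 4 higher in tSema4B cells unstimulated (66.7%, beside 5.64% of all genes) and 5 after NE (83.3%, beside 9.79%). The summed level of the 8 listed was 3445 to 3675 in vector and 4727 to 5482 in tSema4B libraries unstimulated, and 2691 to 2790 and 4434 to 4614 after NE. In bulk RNA fewer cells of a type and less RNA per cell cannot be told apart, and the part of these differences in the values below was not tested. Of the 7 macrophage and 6 endothelial markers, 5 of each were at 0 in unstimulated vector libraries. The summed macrophage level was 3.36 to 7.60 in unstimulated vector libraries and 13.4 to 23.6 after NE, and 0.0 to 5.48 and 9.65 to 24.6 in tSema4B libraries. Most of it after NE came from Csf1r, the CSF1 receptor, at a mean of 1.37 and 11.5 normalized counts in vector cells and 1.31 and 15.8 in tSema4B cells, unstimulated and after NE. Csf1r passed the filter only through the NE libraries, so no test of it is given. The endothelial sum was 4.34 to 13.0 in vector and 12.9 to 21.9 in tSema4B libraries, mostly from Pecam1. For proliferation, limma called none of 12 markers in either NE comparison, where 2 in each (16.7%) had an unadjusted p under 0.05, beside 23.9% of all genes in vector and 19.9% in tSema4B cells. edgeR and DESeq2 called 2 lower with NE in vector cells and 0 in tSema4B cells. Of all 11998 genes edgeR called 642 and DESeq2 752 lower in vector cells, and 271 and 372 in tSema4B cells. In the difference between the NE effects all 12 estimates were above 0, with 0 called by limma and edgeR, 1 higher by DESeq2 and 3 at an unadjusted p under 0.05, beside 10.2% of all genes. Between the lines, limma called 4 of the 12 lower in tSema4B cells unstimulated (33.3%, beside 7.39% of all genes). After NE it called 2 lower and 2 higher (16.7% each, beside 11.2% and 9.79%).

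The members were expressed in every group. Their summed normalized count was 7545 ± 286 (SD, n = 3) in unstimulated vector cells and 13645 ± 1408 in vector cells after NE, a ratio of 1.81. In tSema4B cells the sum was 7188 ± 454 unstimulated and 8925 ± 342 after NE, a ratio of 1.24. The lowest vector library after NE (12109.5) lay above the highest tSema4B library after NE (9253), whereas the unstimulated libraries of the lines overlapped, at 7357 to 7874 in vector and 6681 to 7557 in tSema4B. Ncl and Npm1 gave 30.5% of the sum in unstimulated vector cells, and without them the ranges after NE were 8786 to 10759 in vector and 5768 to 6370 in tSema4B.

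Levels between genes were compared per kilobase of exon, over the 12 libraries. Npm1 was highest at 521 normalized counts per kilobase, followed by Nop10 (269), Nhp2 (213), Ncl (147), Nifk (119) and Myc (102). Rrp12 (7.09), Fbl (7.27) and Rrp1b (7.41) were lowest. This order pools the 4 groups and can differ within a group. For Rrp12 the group means ran from 12.5 (unstimulated tSema4B) to 64.7 normalized counts (vector after NE). Exon lengths are of all annotated transcripts together, from 1109 to 11955 bases, and Ncl, with 10188, is among the longest, so a level is understated where little of that length is used.

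**Figure D1:**
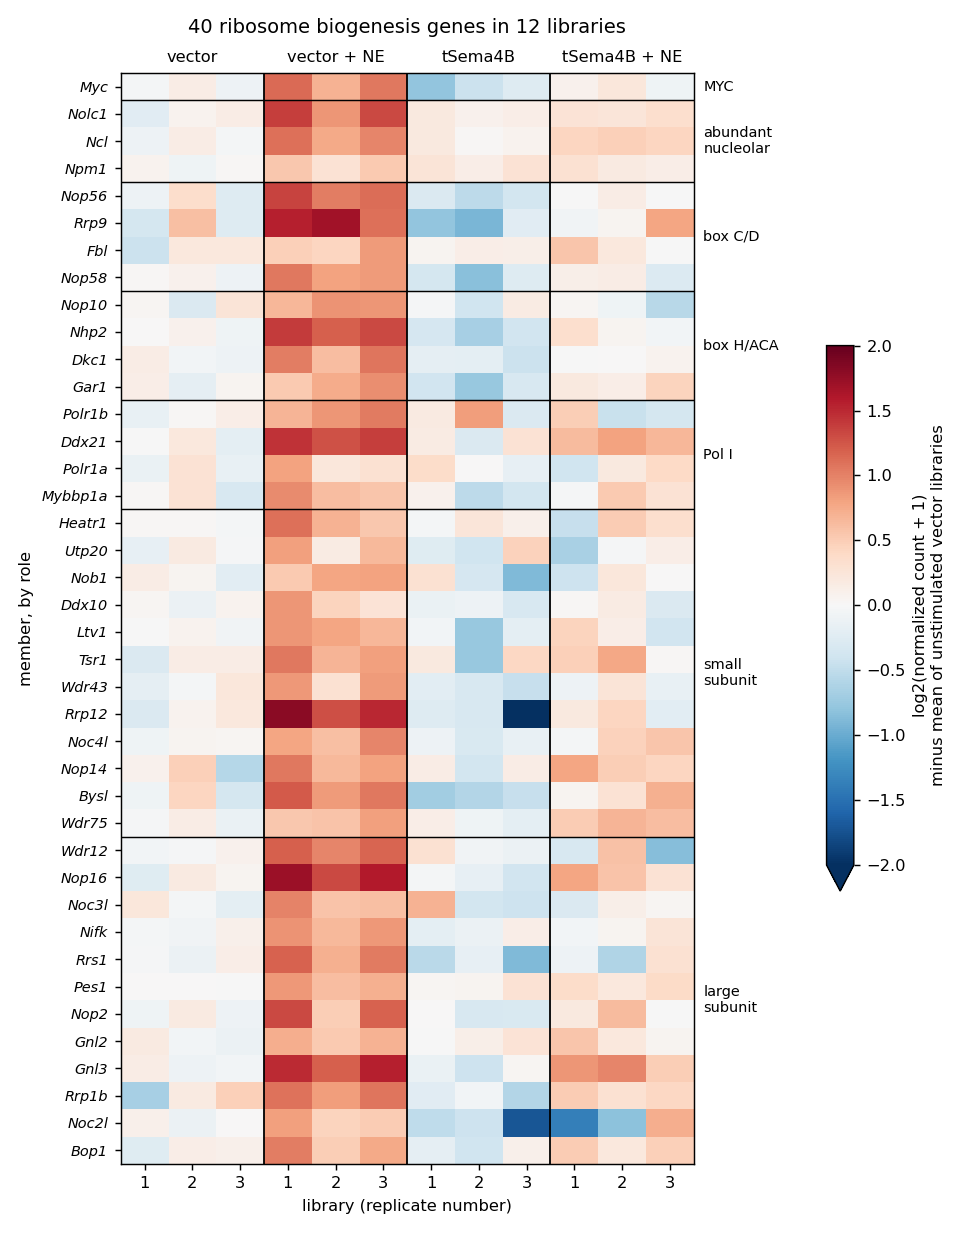
Each cell is log2(normalized count + 1) of 1 of the 40 genes (rows, by role) in 1 of the 12 libraries (columns, numbered by replicate) minus the gene's mean over the 3 unstimulated vector libraries, with colour ending at -2 and 2. The 3 vector libraries after NE are red in nearly every row, whereas tSema4B libraries after NE are paler and mixed, and Rrp12 in 1 unstimulated tSema4B library lies below the scale.

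Myc (chr15:61985391-61990374, plus strand), the regulator of the list, was at 227, 257 and 217 normalized counts in unstimulated vector libraries and at 510.0, 378 and 484 after NE. In tSema4B cells it was at 135, 173 and 194 unstimulated and at 247, 274 and 221 after NE. Groups did not overlap within either line, and the tSema4B libraries after NE reached the level of unstimulated vector cells and not that of vector cells after NE. The log2 fold change with NE was 0.96 ± 0.15 (SE) in vector and 0.57 ± 0.15 in tSema4B cells, a difference of -0.39 ± 0.22. Unstimulated tSema4B cells were lower than unstimulated vector cells, by a log2 difference of -0.49 ± 0.15, again with no overlap.

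Among the abundant nucleolar proteins, Ncl (nucleolin, chr1:86344719-86359400, minus strand), which binds ribosomal RNA and its precursor, was at 1036, 1237 and 1088 normalized counts in unstimulated vector libraries and at 2399, 1880.1 and 2198 after NE. In tSema4B cells Ncl was at 1274, 1131 and 1175 unstimulated and at 1509, 1548 and 1506 after NE. The unstimulated lines overlapped, and every vector library after NE lay above every tSema4B library after NE. Npm1 (nucleophosmin, chr11:33152287-33163206, minus strand), a histone chaperone of the nucleolus, went from 1242, 1109 and 1199 to 1717, 1444 and 1696 in vector cells. In tSema4B cells Npm1 was at 1406, 1302 and 1439 unstimulated and at 1466, 1335 and 1298 after NE, so the tSema4B groups overlapped. Nolc1 (chr19:46075863-46085530, plus strand), a chaperone of snoRNA complexes, had the most negative difference between the lines in this role.
Its vector libraries were at 123, 151 and 160.1 unstimulated and at 376, 266 and 361 after NE, whereas its tSema4B libraries were at 166, 153 and 157 unstimulated and at 174, 170.4 and 182 after NE. The NE effect on Nolc1 was 1.19 ± 0.16 (log2, SE) in vector and 0.14 ± 0.16 in tSema4B cells. For Ncl these were 0.94 ± 0.09 and 0.35 ± 0.09, and for Npm1 0.45 ± 0.09 and -0.02 ± 0.09. Npm1 shares 24.3% of its 50-base stretches with other annotated genes, so its counts are uncertain.

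**Figure D2:**
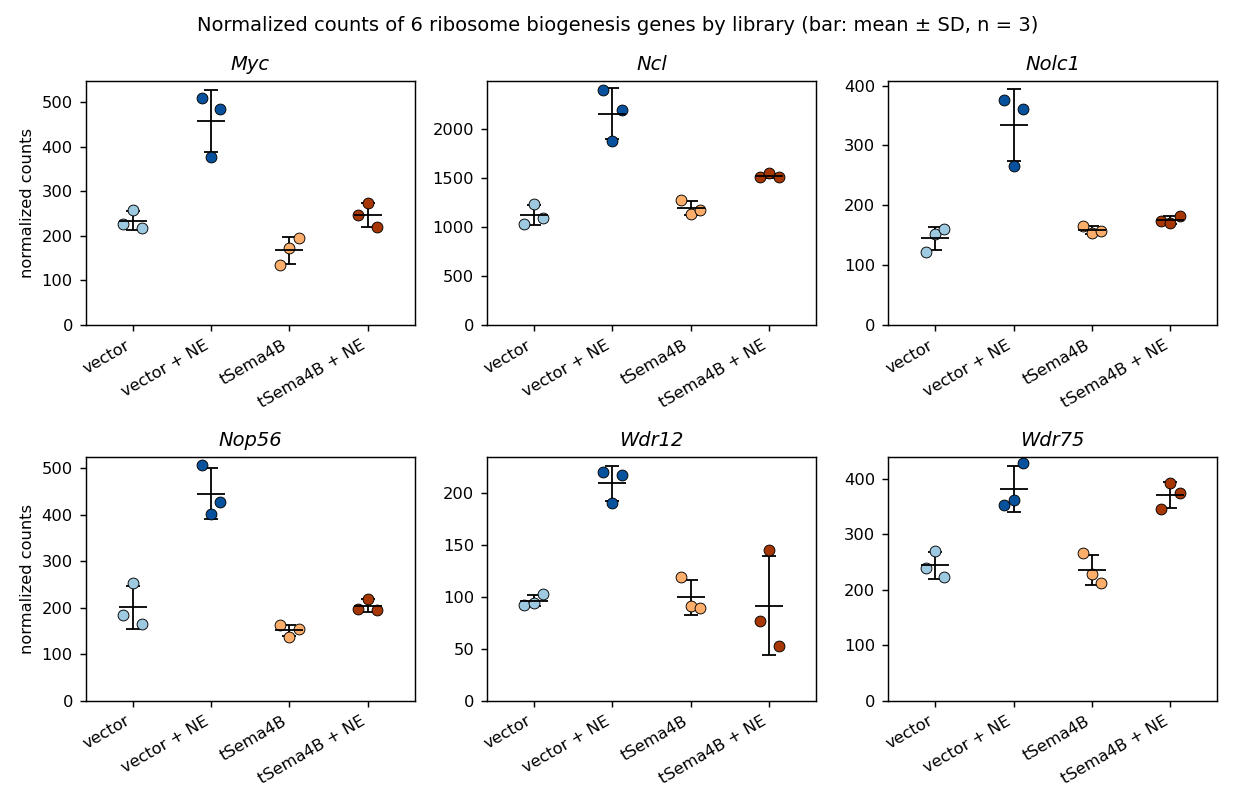
Normalized counts (vertical axis, from 0) of 6 of the genes in each library of the 4 groups, with the mean and SD of 3 libraries as bars. Vector libraries after NE stand apart for Myc, Ncl, Nolc1, Nop56 and Wdr12, whereas Wdr75 was higher after NE in both lines, at 381 in vector and 370.4 in tSema4B cells on average.

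The box C/D proteins methylate ribosomal RNA with the guide RNAs shown above. Nop58 (chr1:59684971-59719044, plus strand), a core scaffold protein, was at 372, 389 and 341 normalized counts in unstimulated vector libraries and at 767, 639.5 and 665 after NE. In tSema4B cells it was at 287, 204 and 307 unstimulated and at 398, 409 and 304 after NE, which overlap by 1 library. Its partner Nop56 (chr2:130274430-130279313, plus strand) was at 185, 253 and 164 unstimulated and 506, 401 and 428 after NE in vector cells. In tSema4B cells Nop56 was at 162, 138 and 153 unstimulated and at 196, 219.7 and 196 after NE. Nop56 after NE in tSema4B cells therefore stayed within the range of unstimulated vector cells, although the tSema4B groups did not overlap each other. The log2 effects of NE were 1.16 ± 0.16 (SE) and 0.43 ± 0.16 for Nop56 and 0.91 ± 0.15 and 0.48 ± 0.15 for Nop58, in vector and tSema4B cells. Rrp9, a protein of the U3 complex that starts small subunit processing, had effects of 1.45 ± 0.31 and 0.90 ± 0.31. Fbl (fibrillarin), the methyltransferase itself, had 0.59 ± 0.32 and 0.15 ± 0.32 at 17 to 71 reads per library, and 19.7% of its 50-base stretches occur in other genes, as do 18.6% of those of Nop56.

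The box H/ACA proteins turn uridines of ribosomal RNA into pseudouridines. Dkc1 (dyskerin, chrX:75095854-75109777, plus strand), the pseudouridine synthase, was at 349, 303 and 292 normalized counts in unstimulated vector libraries and at 638, 482 and 659 after NE. In tSema4B cells Dkc1 was at 275, 272 and 231 unstimulated and at 311, 316 and 330.3 after NE. Its groups did not overlap in either line, and its effects were 0.90 ± 0.13 (log2, SE) in vector and 0.30 ± 0.13 in tSema4B cells. Nop10 (chr2:112261926-112263269, plus strand), a small structural subunit, was at 265, 211 and 307 unstimulated and 411, 483 and 476 after NE in vector cells. In tSema4B cells Nop10 was at 254, 195 and 289 unstimulated and 266, 244 and 174 after NE, which overlap in part. Gar1 (chr3:129824912-129831396, minus strand), which helps release the product, went the same way in both lines. Its libraries were at 38.0, 30.3 and 35.9 unstimulated and 50.4, 58.7 and 66.8 after NE in vector cells, and at 26.2, 20.1 and 27.4 unstimulated and 39.7, 37.9 and 47.6 after NE in tSema4B cells. The effects on Gar1 were 0.74 ± 0.28 and 0.75 ± 0.28, a difference of 0.01 ± 0.40. Nhp2, the RNA-binding subunit, had 1.30 ± 0.14 and 0.57 ± 0.14.

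Among the factors of ribosomal DNA transcription, Ddx21 (chr10:62580251-62602281, minus strand), an RNA helicase that acts on ribosomal DNA transcripts and snoRNAs, had the highest NE effect, at 1.36 ± 0.16 (log2, SE) in vector and 0.64 ± 0.16 in tSema4B cells. It was at 127, 148 and 112 normalized counts unstimulated and 350.1, 310.0 and 335 after NE in vector libraries, and at 144, 105 and 156 unstimulated and 198, 225 and 203 after NE in tSema4B libraries. The groups of each line did not overlap. Mybbp1a (chr11:72441355-72451768, plus strand), a nucleolar binding protein of MYB, was at 321, 389 and 255 unstimulated and 610.1, 488 and 467 after NE in vector cells. Its tSema4B libraries were at 336, 221 and 245 unstimulated and 311, 458 and 389.8 after NE, which overlap, and its effects were 0.71 ± 0.17 and 0.53 ± 0.17. Polr1b (chr2:129100995-129126594, plus strand), the second largest subunit of RNA polymerase I, had opposite signs in the lines, at 0.86 ± 0.29 and -0.34 ± 0.29.
Polr1b was at 45.6, 51.3 and 55.5 unstimulated and 81.3, 94.2 and 105 after NE in vector cells, whereas in tSema4B cells it was at 57.2, 91.3 and 41.1 unstimulated and 71.8, 36.9 and 39.6 after NE. Its tSema4B libraries were widely spread, and 30 to 67 reads stood behind each. Polr1a, the largest subunit, had 0.45 ± 0.23 and -0.01 ± 0.23, and its libraries overlapped in both lines.

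Of the 12 small subunit factors, Wdr75 (chr1:45795166-45823619, plus strand), a part of the processome that binds the precursor early, had the highest mean count and the same response in both lines. It was at 239, 271 and 222 normalized counts unstimulated and 353, 362 and 429 after NE in vector libraries. In tSema4B libraries it was at 266, 229 and 212 unstimulated and 345, 392 and 374 after NE. The groups of either line did not overlap, and the effects were 0.64 ± 0.13 (log2, SE) and 0.65 ± 0.13. Wdr43 (chr17:71615895-71659031, plus strand), of the same complex, was at 205, 225 and 271 unstimulated and 427, 287 and 422 after NE in vector cells. In tSema4B cells it was at 200.2, 186 and 168 unstimulated and 216, 278 and 209 after NE, just past overlap, with effects of 0.68 ± 0.16 and 0.33 ± 0.16. Heatr1 (chr13:12395027-12440289, plus strand), a large scaffold protein of that complex, had the most negative difference between the lines of the 12, at -0.75 ± 0.35.
Heatr1 was at 65.2, 64.7 and 62.1 unstimulated and 138, 104 and 93.6 after NE in vector cells, and at 62.0, 75.8 and 68.5 unstimulated and 46.1, 90.9 and 80.6 after NE in tSema4B cells, where the groups overlapped. Over the 12 genes the median effect was 0.78 in vector and 0.44 in tSema4B cells. The largest estimate was that of Rrp12, an export factor, at 1.53 ± 0.48 and 1.19 ± 0.48, but 2 to 31 reads stood behind its tSema4B values. Bysl, which acts late in small subunit assembly, had 1.04 ± 0.23 and 0.93 ± 0.23. The smallest in vector cells were those of Ddx10, a helicase (0.53 ± 0.18), and Utp20, a processome protein (0.54 ± 0.25), and Nop14, Noc4l, Ltv1, Tsr1 and the endonuclease Nob1 lay between 0.71 and 0.85. Tsr1 shares 29.1% of its 50-base stretches with other genes, mostly with Srr, which overlaps it on the opposite strand, and a protocol of this kind does not keep strand.

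Of the 12 large subunit factors, Gnl2 (chr4:125016585-125055380, plus strand), a GTPase of late assembly, was at 256, 217 and 208 normalized counts unstimulated and 376, 327 and 368 after NE in vector libraries. In tSema4B libraries it was at 225, 244 and 272 unstimulated and 332, 263 and 234 after NE, which overlap, and its effects were 0.65 ± 0.14 (log2, SE) and 0.15 ± 0.14. Gnl3 (nucleostemin, chr14:31012433-31019152, minus strand), a nucleolar GTPase abundant in proliferating cells, was higher after NE in both lines with no overlap. It was at 168, 140.4 and 146 unstimulated and 426, 348 and 447 after NE in vector cells, and at 138, 113 and 155 unstimulated and 279.9, 299 and 214 after NE in tSema4B cells. Its effects were 1.41 ± 0.16 and 0.96 ± 0.16.
Bop1, Pes1 and Wdr12 form 1 complex that processes the precursor of the large subunit, and their values are set side by side without a test between them. Wdr12 (chr1:60069785-60098645, minus strand) had the most negative difference of all 40 genes, at -1.34 ± 0.35. It was at 92.3, 94.2 and 102 unstimulated and 220.4, 190.3 and 217 after NE in vector cells, whereas in tSema4B cells it was at 119, 91.3 and 89.0 unstimulated and 77.2, 145 and 52.9 after NE. A single tSema4B library after NE, the second replicate, stood above the unstimulated ones. Bop1 (chr15:76452989-76477277, minus strand) had the least negative difference of the 12, at -0.20 ± 0.24, next to Noc2l at -0.20 ± 0.65.
It was at 140.1, 182 and 179 unstimulated and 339, 233 and 281 after NE in vector cells, and at 147, 125 and 178 unstimulated and 237, 192 and 231 after NE in tSema4B cells, without overlap in either line. Pes1 had effects of 0.73 ± 0.14 and 0.19 ± 0.14, and 23.3% of its 50-base stretches occur in other genes. The highest effect of the list in vector cells was shared by Rrp12 and Nop16, a nucleolar protein of the large subunit, with 1.53 ± 0.19 for Nop16 against 0.75 ± 0.19 in tSema4B cells. Nop2, a methyltransferase, Nifk, a binding partner of the proliferation marker Ki-67, and Rrs1, which helps to place the 5S RNA, had 0.99 ± 0.20, 0.81 ± 0.14 and 0.98 ± 0.23 in vector cells. Rrp1b had 1.00 ± 0.28, Noc3l 0.72 ± 0.30 and Noc2l 0.59 ± 0.46, the last at 6 to 78 reads per library and with 19.2% of its stretches shared.

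Across the 40 genes every estimate of the NE effect in vector cells was above 0, and their median was 0.83 on the log2 scale (interquartile range 0.71 to 1.01), beside -0.02 over the 11998 genes tested. All 40 passed the filter on low values also when vector libraries after NE were left out. At a Benjamini-Hochberg adjusted p of 0.05 in limma, 30 were called higher and none lower, beside 6.82% of all genes called higher and 4.78% lower. When a doubling was also asked for (a log2 change of 1 or more), 11 were called, beside 1.66% of all genes. The 3 libraries of each group did not overlap for 38 of the 40, all but Polr1a and Utp20, beside 17.6% of all genes with all NE libraries higher. Nothing is read from these counts, since this contrast chose the genes. The 10 not called were Fbl, Gar1, Polr1a, Polr1b, Utp20, Ddx10, Tsr1, Nob1, Noc2l and Noc3l.

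**Figure D3:**
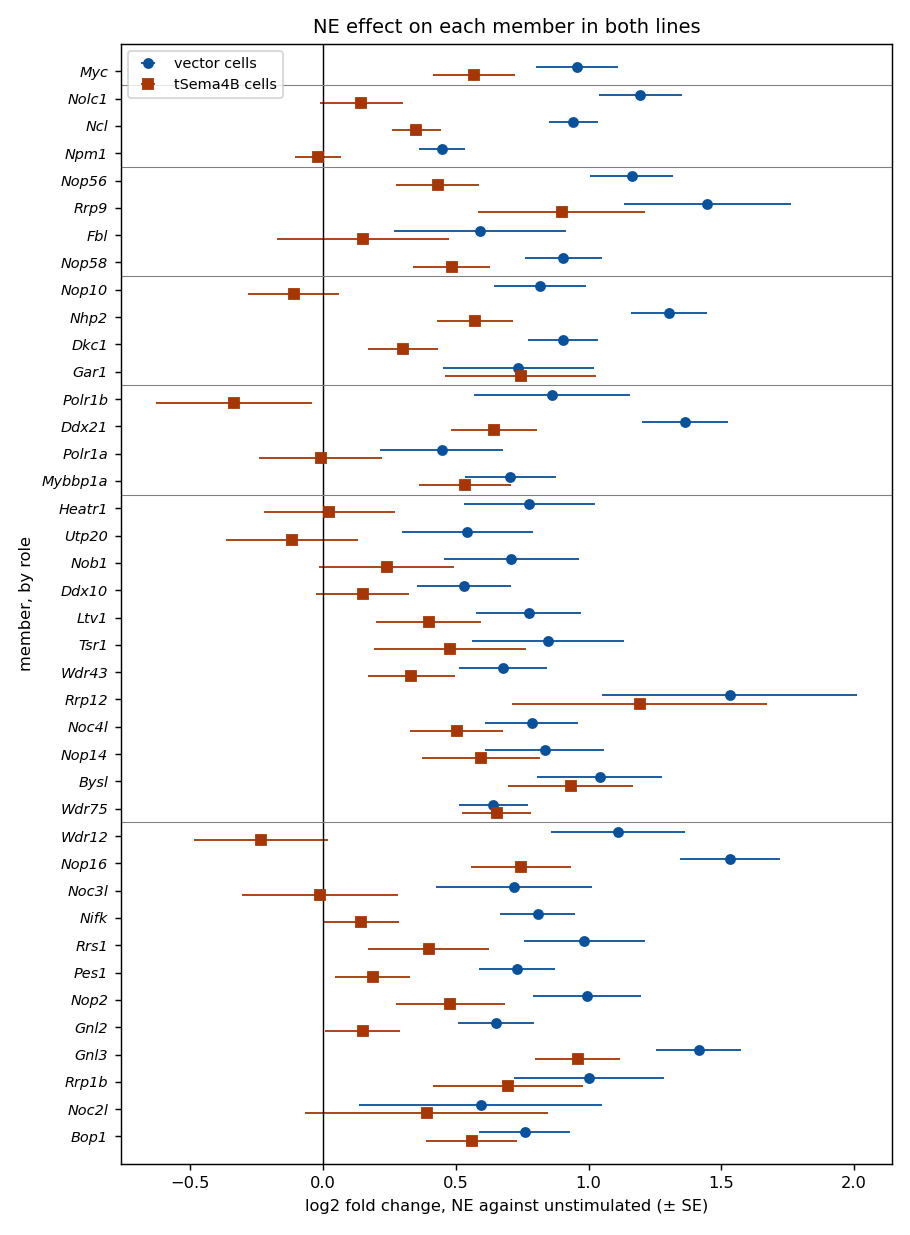
The log2 fold change of NE against unstimulated (horizontal axis, with its SE) is drawn for each of the 40 genes in vector cells (circles) and tSema4B cells (squares), by role and, within a role, from the most to the least negative difference between the lines. Circles lie right of squares for 38 of 40 genes, the exceptions being Gar1 and Wdr75, and 7 squares lie below 0.

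In tSema4B cells 33 of the 40 estimates were above 0, with a median of 0.40 (interquartile range 0.15 to 0.58), beside -0.00 over all genes. Called higher were 9, and none lower, beside 3.68% and 2.58% of all genes. These 9 were Myc, Ncl, Nop58, Nhp2, Ddx21, Wdr75, Bysl, Nop16 and Gnl3, and all 9 were also among the 30 of vector cells. Libraries did not overlap for 19, beside 11.0% of all genes. The count of 9 fell to 4 without the second tSema4B library after NE and to 5 without the second unstimulated tSema4B library. Over all 11998 genes, 441 were called higher with all libraries, and 323 and 397 in these refits.

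The difference between the lines, the NE effect in tSema4B minus that in vector cells, was below 0 for 38 of the 40 genes, with a median of -0.47 (interquartile range -0.68 to -0.34), beside 0.01 over all genes. The count below 0 was 35 to 40 over 23 other ways of fitting. No gene of the list was called by limma at an adjusted p of 0.05, where 0.025% of all genes were called higher (Lpl, Idh1 and Bnip3, named after their values were seen) and 0.0% lower. At an unadjusted p under 0.05, 15 of the list were lower and 0 higher, beside 5.21% of all genes lower. edgeR called 0 of the list lower, beside 0.00833% of all genes, and DESeq2 called 5, beside 0.558%. The 5, named after their values were seen, were Ncl, Npm1, Nolc1, Nhp2 and Nop10. In a limma fit of 11998 genes, simulated interactions of 1 on the log2 scale were recovered in 38.8% of cases and those of 0.5 in 5.97%. The simulation changed 67 genes at each of these sizes, and in vector libraries after NE alone. More genes differed between the real groups, so these rates may not hold for them. Recovery at the levels of the listed genes was not tested. Over the 40 genes the NE effects of the lines, which share no library, had a Pearson correlation of 0.58 and a Spearman correlation of 0.52, across genes and as a description.

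**Figure D4:**
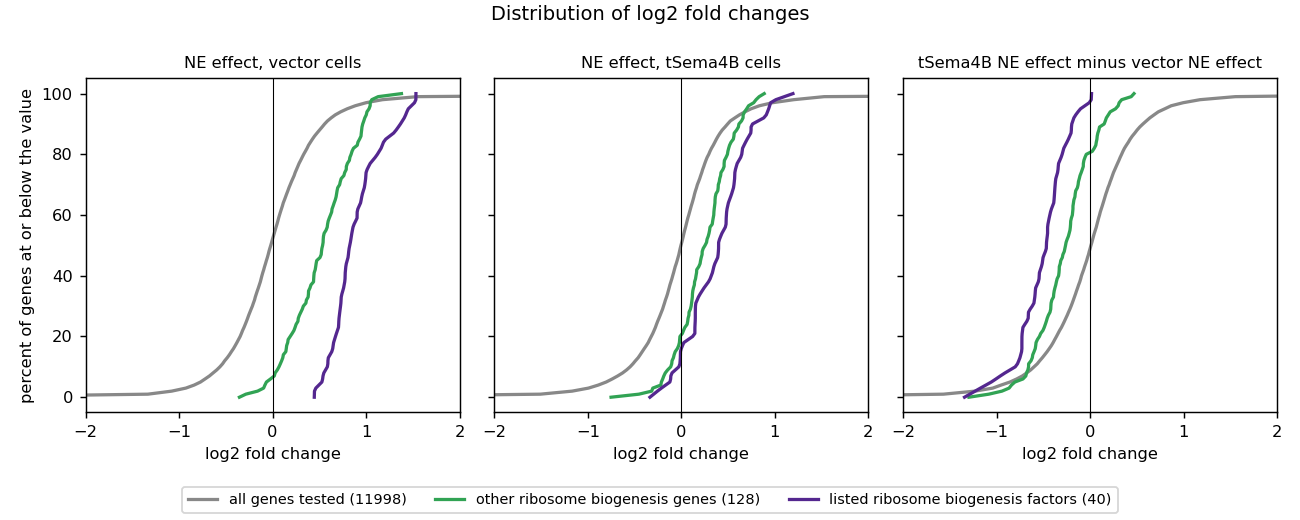
Percent of genes (vertical axis) at or below a log2 fold change (horizontal axis) for the 40 listed factors, 128 other ribosome biogenesis genes and all 11998 genes tested, in 3 panels for NE in vector cells, NE in tSema4B cells and the difference between the lines. The other ribosome biogenesis genes lie between the listed factors and all genes, with medians of 0.54, 0.25 and -0.26.

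The lines were also compared directly. Unstimulated, the median difference of tSema4B from vector cells was -0.18, beside -0.00 over all genes, with 29 estimates below 0. Myc, Nop58 and Nhp2 were called lower and none higher, beside 7.39% of all genes lower and 5.64% higher, and 11 genes had all tSema4B libraries below all vector libraries, beside 15.1%. None of the 3 was called when the first or second unstimulated vector library, or the second unstimulated tSema4B library, was left out. Of all genes, 887 were called lower with all libraries, and 583, 614 and 767 in these refits. After NE all 40 estimates were below 0, with a median of -0.70 (interquartile range -0.92 to -0.46), beside -0.01 over all genes. Called lower were 25, and none higher, beside 11.2% and 9.79% of all genes, and 7 of the 25 passed a log2 fold change of 1 as well, beside 3.73%. The libraries did not overlap for 30, beside 19.8%.
The mean of tSema4B cells after NE was at or under that of unstimulated vector cells for 9 of the 40 genes. The share of all genes was not counted for this pair of groups, so nothing is read from that number.

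The split of calls over all genes depended on scaling. With NE in vector cells 818 genes were higher and 574 lower, but 564 and 624 with reads thinned to one depth and set to the same total. After NE, 1175 genes were higher and 1342 lower in tSema4B than in vector cells, but 1651 and 1030 when libraries were set to the same total, and 1424 and 838 with thinned reads, which were also set to the same total. Thinning and that scaling together moved the median of all genes in this comparison to 0.10, and relative to it the median of the members was -0.72, beside -0.69 relative to all genes as deposited. Unstimulated, 677 and 887 became 475 and 1232 with the same total over nuclear genes. With thinned reads the NE effect in vector cells, for which depth was greatest, had a member median of 0.80, and the difference between the lines one of -0.38.

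Many of the genes varied together within the vector libraries after NE. In the other groups no library was lowest of its 3 for more than 19 of the 40 genes, or highest for more than 21. In vector cells after NE the second replicate, the deepest library, was lowest of the 3 for 30 of the 40 genes, and the first was highest for 30. Their member reads numbered 20431 and 22138. Without the first replicate 23 of the 40 were called higher in vector cells, and without the second 28. Of the 11998 genes tested, 584 and 569 were called higher then, beside 818 with all libraries.

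Other ribosome biogenesis genes were listed from their known roles (132 genes, of which 128 were tested and 1, Riok2, was not analysed here). The rule did not use these genes one by one, but they belong to the class it describes and were listed with earlier results of these libraries known, so limma's calls on them are not independent evidence of the direction. NE raised 52 of the 128 in vector cells (40.6%, beside 6.82% of all genes) and lowered none, with a median of 0.54. Without the first or the third vector library after NE, 31 and 28 rose, beside 584 and 443 of all genes. Of RNA polymerase I and its factors 4 of 13 rose, among them Taf1d, a subunit of the promoter selectivity factor (from 106 ± 3.09 to 209 ± 19.6 normalized counts, SD, n = 3, adjusted p = 0.0043), and the polymerase subunits Polr1e and Polr1d. Of the small subunit factors 22 of 42 rose, and among those called Pwp2, Nol10 and Wdr46 were highest at log2 fold changes of 1.05, 1.04 and 1.00. Of the large subunit factors 21 of 52 rose, and among those called Mrto4 (1.15), Mak16 (1.08) and the helicase Ddx18 (1.04) were highest. Mak16 shares 882 of its 2239 exon bases with Tti2 on the opposite strand, so its counts are uncertain. Of 8 snoRNA complex assembly factors Nufip1 and Ruvbl2 rose, and of 13 subunits and cofactors of the exosome, which trims the precursor's ends, Exosc1, Exosc2 and Exosc9 did.

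In tSema4B cells 10 of these 128 genes (7.81%, beside 3.68% of all genes) rose with NE and none fell, with a median of 0.25. Rexo4, Ppan and Gtpbp4 were highest among the 8 large subunit factors called, at 0.77, 0.72 and 0.70, and Tbl3 (0.61) was the single small subunit factor called. Tbl3 shares 2122 of its 5686 exon bases with Noxo1 on the opposite strand, so its counts are uncertain too. Ruvbl2, an ATPase that helps assemble snoRNA complexes, rose alike in the lines, by 0.63 ± 0.13 (SE, adjusted p = 0.0026) in vector and 0.66 ± 0.13 (adjusted p = 0.0026) in tSema4B cells. The count of 10 was 5 without the second and 6 without the third tSema4B library after NE, beside 323 and 329 of all genes.
No gene of the 128 was called in the difference between the lines, by limma or edgeR, although 15 were lower and 1 (Gnl3l) higher at an unadjusted p under 0.05. These 16 were 12.5% of the 128, beside 10.2% of all genes at that threshold, and 5.21% of all genes were lower. DESeq2 called 1, Utp4, beside 0.558% of all genes. Both were named after their values were seen. The difference between the counts of 52 and 10 was not tested beyond these tests of single genes, and the smallest adjusted p among the 128 was 0.113. After NE 31 of the 128 (24.2%, beside 11.2% of all genes) were lower in the tSema4B line and 1 (Gnl3l) was higher, whereas unstimulated 9 (7.03%, beside 7.39% of all genes) were lower and 1 (Ubtf, 0.781% beside 5.64%) was higher, Gnl3l and Ubtf being named after their values were seen. Without the first or the second unstimulated vector library that 9 became 2, beside 583 and 614 of all genes lower.

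Known partners and antagonists of MYC, such as its partner Max (8 tested), gave no call in any comparison by limma, edgeR or DESeq2. At an unadjusted p under 0.05 in limma there were 1 in vector cells (12.5%, beside 23.9% of all genes) and 0 in tSema4B cells with NE (beside 19.9%). Between the lines there were 1 unstimulated (12.5%, beside 26.1%) and 1 after NE (12.5%, beside 32.9%), and 0 in the difference (beside 10.2%). Of 12 well-known MYC targets outside the ribosome, NE raised 8 in vector cells (66.7%, beside 6.82% of all genes) and 5 in tSema4B cells (41.7%, beside 3.68%). Srm, which makes the polyamine spermidine, rose by 1.70 ± 0.18 (log2, SE, adjusted p = 1.3e-06) in vector and 1.02 ± 0.18 (adjusted p = 0.00072) in tSema4B cells, a difference of -0.68 ± 0.25 that was not called (adjusted p = 0.33). In that difference limma and edgeR called 0 of the 12 targets and DESeq2 called 1 lower, beside 0.558% of all genes, and 4 (33.3%, beside 10.2%) had an unadjusted p under 0.05. Odc1, which starts polyamine synthesis, and Hspe1, a mitochondrial chaperonin, rose in vector cells (0.98 and 0.94), and their estimates in tSema4B cells were -0.08 and -0.01. The translation factors Eif4a1 and Eif4e rose in tSema4B cells, by 0.73 and 0.41. In the difference between the lines 11 of the 12 targets had estimates below 0, and the highest was 0.0012. The vector estimates of Eif4a1 and Eif4e were thus not lower by more than that. Of 84 cytosolic ribosomal protein genes, the products that these factors assemble, 36 rose with NE in vector cells (42.9%, beside 6.82% of all genes, median 0.53), and in tSema4B cells limma called none, with 7 at an unadjusted p under 0.05 (8.33%, beside 19.9% of all genes) and a median of -0.08. In the difference between the lines limma called none of the 84, with 48 at an unadjusted p under 0.05 (57.1%, beside 10.2% of all genes) and a median of -0.56. The other tools were not run on that list.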

How the data were processed

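Reads were made from SMART-Seq2 cDNA with Nextera XT, single-end, and were aligned with STAR 2.7.9a (submitters' processing notes) to GRCm38, and counted per gene with htseq-count. The authors deposited these counts divided by DESeq2 size factors, a signal called normalized counts here. In each library 100% of values were whole multiples of 1 read (tolerance 0.01), so whole reads were recovered. The strand setting is not given in the sources used here.

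Values were compared as log2(normalized count + 1) with limma 3.58.1 (trend, R 4.3.3) in 1 model of the 4 groups, for the 11998 genes that reached 10 normalized counts in 3 or more libraries. The limma tests were two-sided, p-values were adjusted over all these genes by Benjamini and Hochberg, and a call is an adjusted p of 0.05 or less. Fold changes on this scale understate low genes. As alternatives, edgeR 4.0.16 and DESeq2 1.42.0 were run on whole reads, which changed the scale, the size factors and the test together. The other alternatives below changed 1 choice each, except that thinned reads were also set to the same total. The limma fit was tested on simulated data. Replicate numbers were not used as pairs. Shared 50-base stretches and lengths came from GENCODE M21.

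The 40 genes and all other lists were chosen with earlier results of these data known. By rule, library values are given for Myc and, in each role, for the pair of genes highest in mean count and those with the most and least negative difference between the lines. Of other lists at most 3 genes per direction are named in each NE comparison. Protein sequences were not used here.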

Additional observations from a re-analysis of the deposited data

How the results depend on the processing

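No called gene changed direction in the alternatives refitted (24 for the single comparisons and 23 for the difference between the lines, 1 fewer for genes that fail the filter at 50 normalized counts), and DESeq2, edgeR, the pseudocounts of 0.5 and 10, quantile normalization and both scalings left the NE counts in vector cells within 1.5 times. Of the listed factors, 30 were called higher with NE in vector cells and 29 with the replicate block (the number as a term in the model, which moved no count of the list past 1.5 times), and leaving out a library gave 23 to 33. The fold threshold (a log2 change of 1 or more beside the adjusted p) left 11. Over all 11998 genes these numbers were, in the same order, 818, 778, 443 to 891, and 199. In tSema4B cells 9 were called, 0 with the fold threshold, 3 from only the 6 libraries compared and 4 to 8 without a library. For all genes the numbers higher were 441, 157, 230 and 323 to 414. In the difference between the lines 0 were called, 5 by DESeq2 and 0 to 1 without a library (Wdr12, without the second tSema4B library after NE). Of all genes, 0 were called lower in the main fit, 67 by DESeq2 and 0 to 22 without a library. Unstimulated, 3 were lower in tSema4B than in vector cells, 0 with the fold threshold or no filter, 1 each from only the 6 libraries, thinned reads or the same total over all genes, and 0 to 4 without a library. Among all genes the numbers lower were, in that order, 887, 325, 760, 759, 606, 794 and 583 to 952. After NE 25 were lower, 18 to 26 without a library and 7 with the fold threshold, beside 1342, 961 to 1442 and 447 of all genes. Same-numbered libraries did not deviate together (18 pairs, r from -0.05 to 0.03), and 1 of 12 libraries correlated best with its own number.

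Of the other ribosome biogenesis genes, 52 rose with NE in vector cells, 8 with the fold threshold and 28 to 56 without a library. The numbers of all genes called in the settings of this paragraph are those given above for the listed factors. In tSema4B cells 10 rose, 0 with the fold threshold, 2 from only the 6 libraries and 5 to 11 without a library. DESeq2 called 1 in the difference between the lines. Unstimulated, 9 were lower in tSema4B cells, 1 with the fold threshold, 3 with no filter, 3 from only the 6 libraries, 5 with thinned reads and 2 to 9 without a library. After NE 31 were lower, and 6 with the fold threshold. The cause was not tested. Replicates labelled technical limit every comparison to these libraries, and counts of a few reads, as for Rrp12 and Noc2l, leave wide errors.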
